A study of Mus musculus with 6 samples.

Results

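The genes described here are 10 components of transforming growth factor beta (TGF-beta) and activin signalling, the ligand genes Tgfb1, Tgfb2, Tgfb3 and Inhba, the latent TGF-beta binding protein genes Ltbp2 and Ltbp3, the activin antagonist gene Fst and the receptor genes Tgfbr1, Tgfbr2 and Tgfbr3. They were taken by gene symbol from a deposited table of 31401 genes, and each of the 10 symbols had 1 row. The libraries came from wild-type primary osteoblasts, the bone-forming cells, released by enzyme digestion from the calvaria (skull bones) of C57BL/6 mice 3 days old. All cultures were kept in osteogenic induction medium for 6 days, 3 without ZM (control) and 3 with 10 μM ZM. ZM stands for ZM-306416, a compound that blocks the kinases of VEGF and EGF receptors, and the comparison asks how the transcripts of this pathway differed in cultures kept with it. All 6 libraries carry the same batch label, and the labels state neither if the 3 samples of each group were grown as separate cultures nor how many mice were pooled. The p-values therefore reflect the spread among these samples alone, which may be technical.

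TGF-beta ligands are secreted in a latent form, held by their own propeptide and tethered to the matrix by latent TGF-beta binding proteins, and bone matrix is known as a large store of them. Once released, they bind the type II receptor, which recruits and phosphorylates the type I receptor, and the type I receptor phosphorylates Smad2 and Smad3. Activins, dimers of inhibin beta subunits, use their own receptors but the same Smads, and follistatin binds activins in the extracellular space. In bone, TGF-beta is known to recruit osteoblast precursors and to restrain late osteoblast maturation, and activin A is known to act on osteoblasts and osteoclasts.

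Total counts per library ranged from 42721326 to 69867931, and counts of the 10 genes ranged from 1363 (Tgfb2 in ZM sample 2) to 68745 (Inhba in control sample 2), so none was near the detection limit. Levels below are FPKM, fragments scaled to gene length and library size, recomputed from the deposited counts with library sizes scaled by TMM, a method that balances libraries of different RNA composition. They equal the deposited FPKM times 0.978 to 1.03, depending on the library. Changes are log2 fold changes of ZM over control ± SE from edgeR's quasi-likelihood test, with p-values adjusted over all 17533 genes tested, and a gene was called when its adjusted p was below 0.05.

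The 3 TGF-beta ligands are close relatives, so their coding sequences are shown to let a reader see how far their reads can be told apart. The lines below give the last 90 coding bases before the stop codon of each, in the part that encodes the mature ligand, from GENCODE M21 transcripts (GRCm38). Capitals mark the 32 positions at which the 3 genes do not all carry the same base.
Tgfb1: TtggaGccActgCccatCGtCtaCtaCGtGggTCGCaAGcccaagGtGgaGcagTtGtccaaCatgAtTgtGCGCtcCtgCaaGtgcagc
Tgfb2: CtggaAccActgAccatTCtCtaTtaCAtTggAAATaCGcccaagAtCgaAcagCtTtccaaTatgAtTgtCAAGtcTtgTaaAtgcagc
Tgfb3: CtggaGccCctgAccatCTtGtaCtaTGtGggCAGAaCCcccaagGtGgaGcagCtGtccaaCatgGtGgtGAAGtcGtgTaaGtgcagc
Over the last 336 coding bases, aligned without gaps, Tgfb1 matched Tgfb3 at 73.5% of positions, Tgfb2 matched Tgfb3 at 70.8% and Tgfb1 matched Tgfb2 at 68.8%. The longest run of identical bases was 15, between Tgfb1 and Tgfb3. Of all 50-base windows in the annotated transcripts of the 10 genes, 0 occurred in a transcript of another of the 10. Windows shared with any other annotated gene made up between 0.0153% (Tgfbr1) and 8.79% (Tgfb3) of a gene's windows. Exons of the predicted genes Gm37804 and Gm48008 overlap 12.4% of the Tgfb3 exon length, and D030025P21Rik overlaps 9.34% of that of Ltbp2. The strand setting of the counting is not known here, so the levels of both genes carry that uncertainty.

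With ZM, 4 of the 10 genes rose, 3 fell and 3 were not called, and the movement split the ligands. Inhba, the most abundant of the 10 in control cultures, fell 2.11-fold and Tgfb1 fell 1.59-fold, while Tgfb3 rose 1.60-fold and the activin antagonist Fst 1.76-fold. Among the receptors, the coreceptor Tgfbr3 rose 1.65-fold and the type II receptor Tgfbr2 1.19-fold, and the type I receptor Tgfbr1 was not called. Over all genes tested 45.3% were called (22.8% higher and 22.4% lower), so a call as such is common in this comparison. The size of the change was above the middle of all genes: the median absolute log2 fold change was 0.46 over the 10 genes and 0.23 over all tested genes, and 5 of the 10 were called with at least a 1.5-fold change, against 14.4% of all tested genes. The signed median was 0.04 for the 10 genes and 0.00 for all tested genes, since rises and falls were balanced. The groups did not overlap for 8 of the 10 genes, against 54.2% of all tested genes. The 10 genes were chosen with earlier results of these data known. They stood between the 60.9th (Tgfb2) and the 98.2nd (Inhba) percentile of mean level among tested genes. These shares therefore describe the 10 genes and do not test them.

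**Figure D1:**
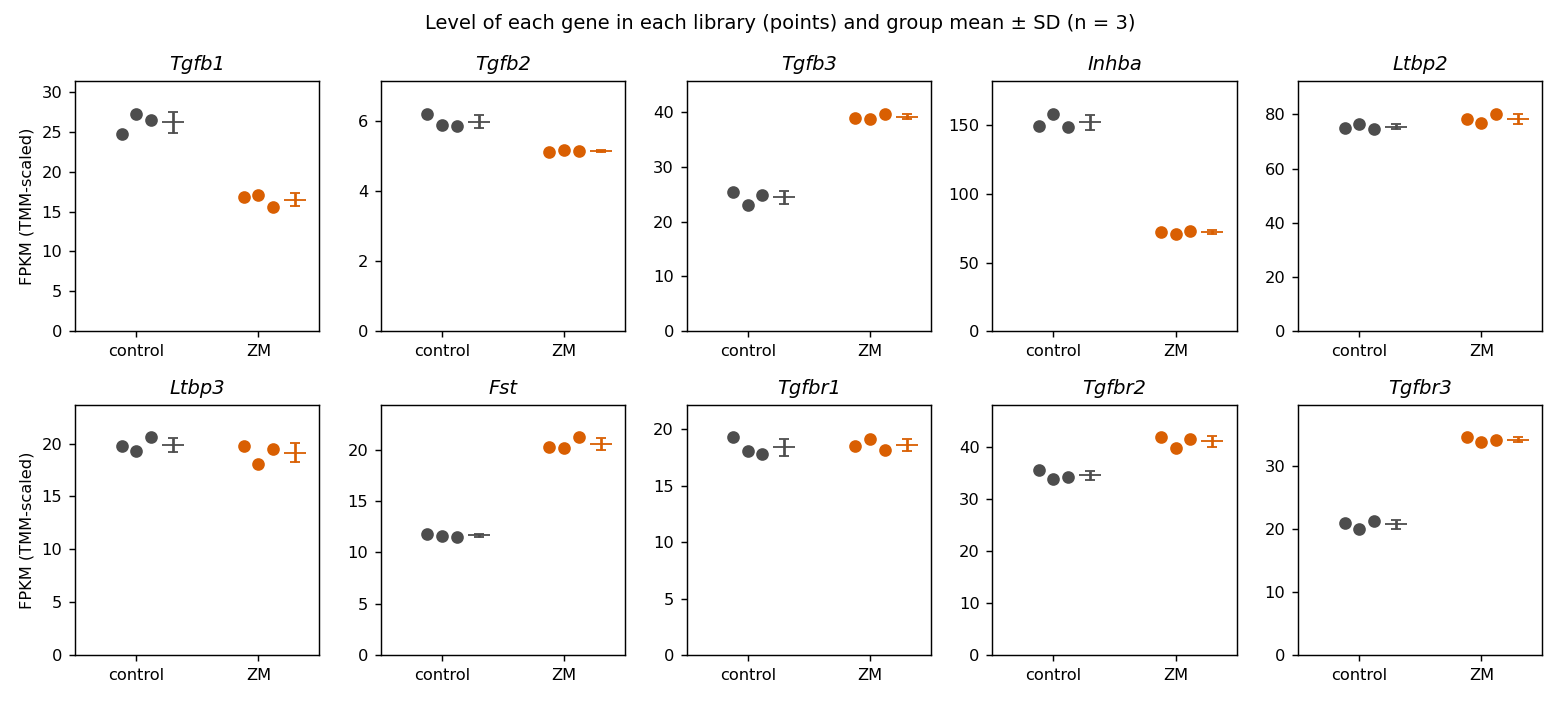
Level of each of the 10 genes (FPKM on TMM-scaled library sizes, each axis from 0) in the 3 control (grey) and 3 ZM (orange) libraries, with the group mean ± SD beside the points. The Inhba points drop from 149 or more to 73.3 or less, the Tgfb3, Fst and Tgfbr3 points rise, and the Ltbp3 and Tgfbr1 points of both groups overlap.

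Inhba (chromosome 13, 16011851 to 16031621, plus strand, GRCm38) encodes the inhibin beta A subunit, 2 copies of which form activin A. Its level was 149, 159 and 149 FPKM in control samples 1 to 3 and 72.6, 71.0 and 73.3 FPKM in ZM samples 1 to 3. All ZM libraries lay far below all control libraries, and the spread within each group was small beside the gap. The log2 fold change was -1.08 ± 0.03 (adjusted p = 2.3e-13, edgeR), larger in size than that of 92.8% of all tested genes. Inhba stood at the 98.2nd percentile of mean level among tested genes.

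Tgfb1 (chromosome 7, 25687002 to 25705077, plus strand), the isoform known as the most abundant in bone matrix, was at 24.8, 27.3 and 26.5 FPKM in control and 16.8, 17.0 and 15.5 FPKM in ZM samples. All ZM libraries were below all control libraries (log2 fold change -0.67 ± 0.04, adjusted p = 3.3e-09, edgeR). Macrophages are known to make Tgfb1, and markers of macrophages fell in the same libraries. Of 14 markers 13 fell, against 22.4% of all tested genes, 1 (Cx3cr1) rose and none was at 0. Their summed level was 14975 to 15645 FPKM in control and 7845 to 8744 FPKM in ZM samples. The part of this in the Tgfb1 change was not tested. In such bulk samples fewer cells of a type and less RNA per cell cannot be told apart.

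Tgfb2 (chromosome 1, 186622792 to 186705989, minus strand), the isoform that depends most on betaglycan to reach the type II receptor, was the lowest of the 10 in both groups. It was at 6.20, 5.87 and 5.86 FPKM in control and 5.11, 5.18 and 5.13 FPKM in ZM samples, again without overlap. The fall was small (log2 fold change -0.22 ± 0.05, adjusted p = 0.0014, edgeR), and with limma on the deposited log2(FPKM + 1) it was -0.13 (adjusted p = 0.018).

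Tgfb3 (chromosome 12, 86056745 to 86079041, minus strand), the isoform known for its part in palate fusion, went the other way. It was at 25.4, 23.1 and 24.8 FPKM in control and 38.9, 38.7 and 39.7 FPKM in ZM samples. The lowest ZM library was above the highest control library by more than the spread of either group (log2 fold change 0.68 ± 0.04, adjusted p = 6.2e-10, edgeR). Its direction was opposite to that of Tgfb1 and Tgfb2 in the same libraries.

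With TMM scaling, these changes left the sum of the 3 isoforms slightly above its control level while their order changed. The summed level was 56.4, 56.2 and 57.1 FPKM in control and 60.8, 60.9 and 60.3 FPKM in ZM samples, 1.07-fold higher. The groups did not overlap. The sum depends on the scaling, and no other scaling was tried for it. Within each library, which makes the value independent of scaling, Tgfb1 made up 43.9%, 48.5% and 46.3% of the sum in control and 27.6%, 27.9% and 25.7% in ZM samples. Tgfb3 made up 45.1%, 41.1% and 43.4% in control and 64.0%, 63.6% and 65.8% in ZM samples. In control cultures the Tgfb1 and Tgfb3 levels overlapped, and in ZM cultures Tgfb3 was above Tgfb1 in every library. The Tgfb2 share went from 10.6% ± 0.384 to 8.47% ± 0.0621 (SD, n = 3 each). Each of these shares had p = 0.1 in an exact two-sided permutation test, the smallest that 3 samples against 3 allow, and p = 0.1 after adjustment over the 5 shares and ratios tested.

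**Figure D2:**
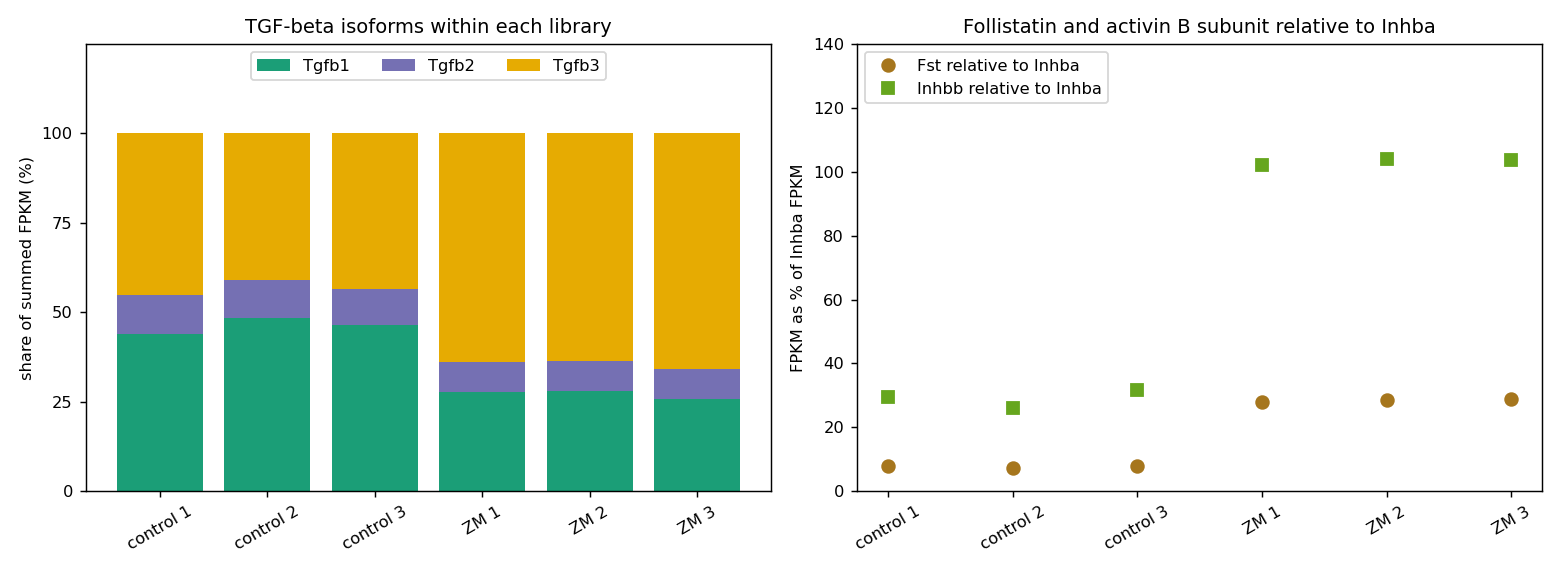
Left, share (%) of Tgfb1, Tgfb2 and Tgfb3 in their summed FPKM in each of the 6 libraries; right, the FPKM of Fst (circles) and of Inhbb (squares) as a percentage of the Inhba FPKM of the same library. The Tgfb3 share is 41.1% to 45.1% in control and 63.6% to 65.8% in ZM libraries, and both ratios are higher in every ZM library than in every control library.

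Promoters are shown for the 3 ligands that fell, to let their sequence be compared. The lines give the 250 bases before the annotated start from RefSeq (GRCm38.p6), on the strand of the gene: chr13:16011601-16011850 (plus strand) for Inhba, chr7:25686752-25687001 (plus strand) for Tgfb1 and chr1:186705990-186706239 (minus strand) for Tgfb2. Capitals mark matches on either strand to the motifs searched. These were the TATA box (searched as TATAAA), the GC box (searched as GGGCGG), the AP-1 motif (searched as TGANTCA), the E-box (searched as CACGTG), the cyclic AMP response element or CRE (searched as TGACGTCA) and its shorter core (searched as TGACG), which lies within the full element.
Inhba: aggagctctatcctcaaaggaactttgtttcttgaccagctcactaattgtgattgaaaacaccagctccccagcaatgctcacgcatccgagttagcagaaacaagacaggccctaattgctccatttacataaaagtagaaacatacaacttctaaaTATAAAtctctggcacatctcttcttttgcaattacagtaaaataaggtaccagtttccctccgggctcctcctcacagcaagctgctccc
Tgfb1: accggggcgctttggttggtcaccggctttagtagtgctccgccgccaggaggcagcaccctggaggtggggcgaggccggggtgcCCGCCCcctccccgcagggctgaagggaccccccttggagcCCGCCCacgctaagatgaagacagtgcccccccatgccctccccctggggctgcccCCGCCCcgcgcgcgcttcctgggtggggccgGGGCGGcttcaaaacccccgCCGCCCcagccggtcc
Tgfb2: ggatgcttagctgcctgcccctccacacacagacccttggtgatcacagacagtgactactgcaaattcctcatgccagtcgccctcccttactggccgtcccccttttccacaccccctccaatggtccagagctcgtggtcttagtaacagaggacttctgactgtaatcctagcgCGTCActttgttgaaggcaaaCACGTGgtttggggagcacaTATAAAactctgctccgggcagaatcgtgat
None of the motifs was in all 3 windows. The Inhba window is 43.2% GC (bases G or C) and holds a TATAAA 91 to 86 bases before the start. The Tgfb1 window is 75.2% GC and holds 5 GC boxes and no TATAAA. The Tgfb2 window is 53.6% GC and holds a TATAAA 31 to 26 bases, a CACGTG 51 to 46 bases and a CRE core 72 to 68 bases before the start. Of all 32851 promoters in the RefSeq table, 12.4% hold the TATA box, 32.7% the GC box, 6.75% the AP-1 motif, 6.02% the E-box, 1.55% the full CRE and 17.8% the CRE core in the same window, and the median GC content is 52.4%. The AP-1 motif, bound by Fos and Jun dimers, was in 0 of the 3 windows. The table has promoters for 7 of the 10 genes, without Tgfb3, Tgfbr3 and Fst.

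Fst (chromosome 13, 114452290 to 114458951, minus strand) encodes follistatin, which binds activins with high affinity and keeps them from their receptors. It was at 11.8, 11.6 and 11.5 FPKM in control and 20.3, 20.2 and 21.2 FPKM in ZM samples. It was the largest rise among the 10, with no overlap between the groups (log2 fold change 0.82 ± 0.04, adjusted p = 3.5e-11, edgeR). Because Fst rose while Inhba fell, the Fst level went from 7.66% ± 0.295 to 28.5% ± 0.498 of the Inhba level (SD, n = 3 each), a 3.72-fold difference. Its log2 ratio was -3.66, -3.77 and -3.69 in control and -1.84, -1.81 and -1.79 in ZM samples (exact two-sided permutation p = 0.1, adjusted p = 0.1, n = 3 each, the smallest this design allows). In all libraries the Fst transcript stayed below the Inhba transcript per length.

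Neither latent TGF-beta binding protein was called. Ltbp2 (chromosome 12, 84783212 to 84876532, minus strand), which binds fibrillin but is known not to bind latent TGF-beta, was at 75.0, 76.5 and 74.7 FPKM in control and 78.2, 76.7 and 80.3 FPKM in ZM samples. The groups did not overlap but their nearest libraries, at 76.5 and 76.7 FPKM, almost met (log2 fold change 0.06 ± 0.03, adjusted p = 0.17, edgeR). It was called as higher under scaling by total count (library size alone; 0.12, adjusted p = 0.0063) and by limma on the deposited FPKM, so its call depended on the scaling. Ltbp3 (chromosome 19, 5740904 to 5758532, plus strand), which carries latent TGF-beta and is needed for normal skull growth in mice, was at 19.8, 19.3 and 20.6 FPKM in control and 19.8, 18.1 and 19.5 FPKM in ZM samples. The groups overlapped (log2 fold change -0.06 ± 0.04, adjusted p = 0.28, edgeR). Ltbp2 was the most abundant of the 10 in ZM cultures.

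The receptors differed from each other. Tgfbr3 (chromosome 5, 107106570 to 107289629, minus strand) encodes betaglycan, a coreceptor that presents TGF-beta to the type II receptor and also binds inhibin. It was at 21.0, 19.9 and 21.3 FPKM in control and 34.5, 33.7 and 34.1 FPKM in ZM samples, with all ZM libraries above all control libraries (log2 fold change 0.72 ± 0.04, adjusted p = 6e-11, edgeR). Tgfbr2 (chromosome 9, 116084293 to 116175360, minus strand), the ligand-binding type II kinase, was at 35.5, 33.8 and 34.2 FPKM in control and 41.8, 39.7 and 41.5 FPKM in ZM samples. The groups did not overlap, and the rise was small (log2 fold change 0.25 ± 0.03, adjusted p = 1.5e-05, edgeR). Tgfbr1 (chromosome 4, 47353222 to 47414931, plus strand), the signal-transmitting type I kinase also called ALK5, was at 19.3, 18.1 and 17.8 FPKM in control and 18.5, 19.2 and 18.1 FPKM in ZM samples. Its groups overlapped (log2 fold change 0.02 ± 0.04, adjusted p = 0.76, edgeR). As a share of the Tgfbr2 level, Tgfbr1 went from 53.4% ± 1.06 to 45.4% ± 2.48 (SD, n = 3 a group, exact two-sided permutation p = 0.1, adjusted p = 0.1), and the Tgfbr3 level went from 60.1% ± 1.91 to 83.2% ± 1.43 of it.

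**Figure D3:**
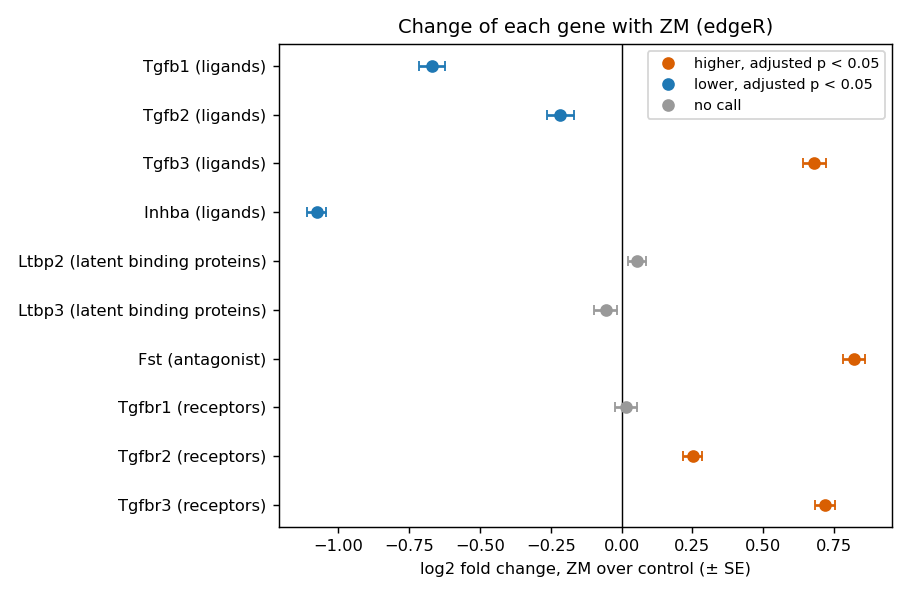
log2 fold change of ZM over control (± SE, edgeR, 3 libraries a group) for the 10 genes, ordered by role. Inhba (-1.08), Tgfb1 (-0.67) and Tgfb2 (-0.22) lie to the left of 0, Fst (0.82), Tgfbr3 (0.72), Tgfb3 (0.68) and Tgfbr2 (0.25) to the right, and Ltbp2, Ltbp3 and Tgfbr1 in grey were not called.

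The order of levels per length therefore changed at several places. In control cultures it ran Inhba, Ltbp2, Tgfbr2, Tgfb1, Tgfb3, Tgfbr3, Ltbp3, Tgfbr1, Fst and Tgfb2, and the ranges of Tgfb1 and Tgfb3 and those of Tgfbr3 and Ltbp3 overlapped. In ZM cultures it ran Ltbp2, Inhba, Tgfbr2, Tgfb3, Tgfbr3, Fst, Ltbp3, Tgfbr1, Tgfb1 and Tgfb2, and only the neighbours Ltbp3 and Tgfbr1 overlapped. Tgfb1 went from the fourth to the ninth place and Fst from the ninth to the sixth.

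Among 7248 tested genes with a mean of at least 5 FPKM, those nearest to Fst in the log2 levels of the 6 libraries, each gene centred on its own mean, were Epha4, Ablim1 and Septin11, at distances of 0.05, 0.06 and 0.07. Those nearest to Inhba were Atp8b4, Thbd and Dock5, at distances of 0.10, 0.10 and 0.11. With 2 groups of 3 libraries such nearness mostly reflects a fold change of like size.

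Of 68 tested genes in 6 lists of other pathway components, 27 rose and 23 fell, and the lists went different ways. Over all tested genes in that fit 45.3% were called, against 73.5% of the 68, and the lists were drawn up with earlier results of these data known. Of 4 other ligand genes tested 3 rose (Inhbb, Inha and Gdf11) and 1 fell. Inhbb, the inhibin beta B subunit that forms activin B, was at 44.1, 41.4 and 47.4 FPKM in control and 74.1, 73.8 and 76.0 FPKM in ZM samples (log2 fold change 0.75 ± 0.04, adjusted p = 8.8e-10, edgeR). Its level went from 29.2% ± 2.86 to 103% ± 0.973 of the Inhba level (SD, n = 3 each), so that the Inhba and Inhbb transcripts stood at about the same level per length in ZM cultures. That ratio was chosen after its values were seen and was not tested. Inha, the alpha subunit that turns a beta subunit into inhibin, rose from 1.48 to 2.53 FPKM (0.77 ± 0.14), and the stress-induced Gdf15 fell from 3.90 to 2.65 FPKM (-0.57 ± 0.15), a call that ended with limma on log2(FPKM + 1) (adjusted p = 0.057). Mstn was below the expression filter.

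Of 8 other extracellular inhibitors of TGF-beta family ligands tested, 5 rose, against 22.8% of all tested genes, and 3 were not called. Fibromodulin, Fmod, a collagen-binding proteoglycan that also binds TGF-beta, was at 110, 117 and 108 FPKM in control and 343, 364 and 360 FPKM in ZM samples (log2 fold change 1.67 ± 0.04, adjusted p = 3.7e-15, edgeR). The serine protease Htra3 rose from 1.66 to 3.50 FPKM (1.08 ± 0.08). Decorin (Dcn), Htra1 and Fstl1 were the other genes that rose, and Bgn, Fstl3 and Lefty1 were not called; these 6 are named to complete the list. Biglycan, Bgn, was at 577 and 547 FPKM (adjusted p = 0.071, edgeR) and was called as lower when only genes with a mean of at least 1 CPM were tested and without ZM sample 3, where 1 gene of the list fell. Prss57 overlaps 47.3% of the Fstl3 exon length.

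Genes of latency, storage and activation were split, with 6 of 15 tested genes higher and 7 lower, against 22.8% and 22.4% of all tested genes. The fibrillin Fbn2, whose family anchors latent complexes, rose most, from 0.296 to 3.12 FPKM (log2 fold change 3.40 ± 0.07, and 1.70 with limma on log2(FPKM + 1)), and the membrane protease Mmp14 rose from 73.0 to 92.4 FPKM (0.34 ± 0.04). Furin, the protease that cuts the ligand precursors, fell from 25.3 to 18.2 FPKM (-0.47 ± 0.04), and thrombospondin 1, Thbs1, an activator of latent TGF-beta, fell from 1241 ± 7.58 to 943 ± 57.5 FPKM (-0.40 ± 0.04). The binding protein Ltbp1 was at 16.9 and 16.3 FPKM (adjusted p = 0.33, edgeR), and Ltbp4 fell from 0.753 to 0.588 FPKM (-0.35 ± 0.12). The call of Ltbp4 was lost with DESeq2 (adjusted p = 0.064) and when libraries were scaled by total count (adjusted p = 0.062). Leaving out control sample 1 gave an adjusted p of 0.12, and leaving out a ZM library gave 0.051 (sample 1) or 0.09 (sample 2), by edgeR.

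Of 8 other receptors and coreceptors tested, 4 rose and 2 fell, against 22.8% and 22.4% of all tested genes. Endoglin, Eng, a coreceptor of TGF-beta and BMP receptors, was at 28.7, 29.0 and 29.9 FPKM in control and 44.3, 47.7 and 47.7 FPKM in ZM samples (log2 fold change 0.68 ± 0.04, adjusted p = 3.4e-10, edgeR). The activin receptors Acvr2a (type II, 0.52 ± 0.05, with 7.84% of its exon length overlapped by Orc4) and Acvr1b (type I, 0.35 ± 0.06) rose, and Acvr2b was low, at 0.319 and 0.339 FPKM (adjusted p = 0.73, edgeR). The decoy receptor Bambi fell from 1.56 to 1.25 FPKM (-0.32 ± 0.09). Cd109, a coreceptor that dampens TGF-beta signalling, fell by 0.13 ± 0.04 on the log2 scale, and the call was lost when libraries were scaled by total count (adjusted p = 0.17). The same held for limma on the deposited FPKM (adjusted p = 0.20) and for the 5 libraries other than ZM sample 1 (adjusted p = 0.12).

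Of 13 Smads and intracellular regulators 4 rose and 4 fell, against 22.8% and 22.4% of all tested genes. Smad3 rose by a log2 fold change of 0.20 ± 0.04 (adjusted p = 4.4e-04, edgeR), while Smad2 (0.05 ± 0.04) and the shared partner Smad4 (0.10 ± 0.05) were not called. With scaling by library size alone 7 rose, with Smad2 (adjusted p = 0.029) and Smad4 (adjusted p = 0.011) among them. Smad4 was also called without control sample 1 (adjusted p = 0.018). Limma on the deposited log2(FPKM + 1) or log2(FPKM + 0.1) called both as higher as well (adjusted p = 0.035 for Smad2 and 0.036 for Smad4 in each). The inhibitory Smad7, a feedback target of the pathway, rose by 0.16 ± 0.05 (adjusted p = 0.03, edgeR), a call lost with DESeq2 (adjusted p = 0.068). Leaving out control sample 1 (adjusted p = 0.082) or 2 (adjusted p = 0.099) also ended it, as did leaving out ZM sample 1 (adjusted p = 0.14) or 2 (adjusted p = 0.056). The corepressors Tgif1 (-0.70 ± 0.05) and Skil (-0.43 ± 0.05) fell, and the related Ski (0.22 ± 0.03) and the Smad anchor Zfyve9 (0.30 ± 0.05) rose. Another annotated gene overlaps 10.9% of the Zfyve9 exon length.

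Transcripts known to be induced by TGF-beta did not move as a block, with 9 of 20 lower and 5 higher. Over all tested genes 22.4% were lower and 22.8% higher. The cytokine Il11 fell from 1.53 ± 0.157 to 0.231 ± 0.0332 FPKM (log2 fold change -2.73 ± 0.20, adjusted p = 6.4e-09, edgeR) and the protease inhibitor Timp1 from 1543 ± 92.9 to 751 ± 58.1 FPKM (-1.04 ± 0.07). The connective tissue growth factor gene Ccn2 fell by 0.18 ± 0.04, and Gm15270 overlaps 23.2% of its exon length. Snai2, the transcription factor Slug, rose from 7.06 ± 0.578 to 20.0 ± 2.04 FPKM (1.51 ± 0.08), and the oxidase Nox4 from 1.94 ± 0.106 to 3.83 ± 0.217 FPKM (0.98 ± 0.06). The median log2 fold change of this list was -0.05, against 0.00 over all tested genes.

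**Figure D4:**
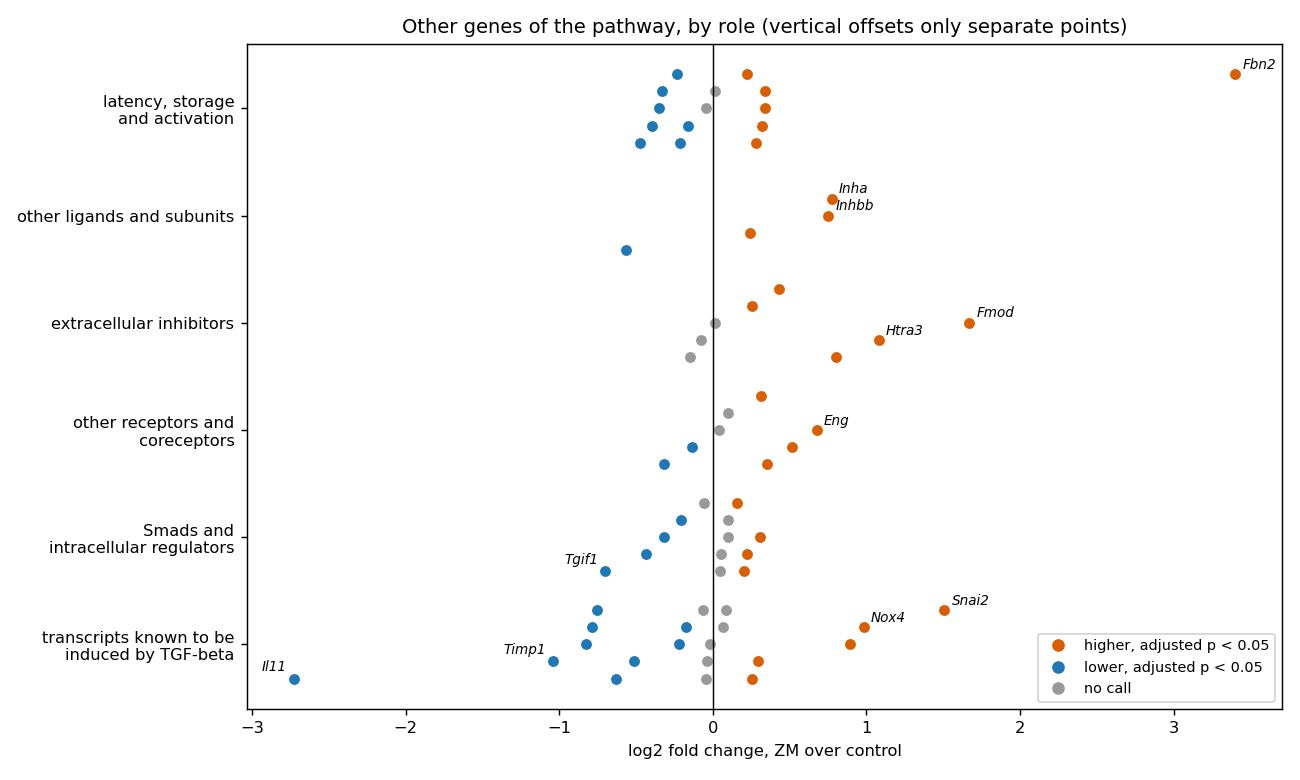
log2 fold change of ZM over control for the 68 tested pathway genes outside the 10, in 6 rows by role, coloured by edgeR call; vertical offsets carry no value. The inhibitors reach from -0.15 to 1.67 with Fmod at the right, and the induced transcripts reach from -2.73 (Il11) to 1.51 (Snai2).

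Marker lists give transcripts typical of osteoblasts and of other cell types, and bulk levels cannot show which cells carried them. Of 9 osteoblast and mesenchymal markers 7 rose, against 22.8% of all tested genes, and 2 were not called (edgeR). The osteoblast genes Sp7 (0.405 FPKM) and Alpl (0.644 FPKM) were low in control cultures, where Col1a1 stood at 1355 FPKM. In ZM samples Sp7 was at 0.729 FPKM (log2 fold change 0.85 ± 0.18) and Alpl at 7.66 FPKM (3.58 ± 0.08). The macrophage lysozyme Lyz2 was at 12495 FPKM in control and 6587 FPKM in ZM samples, Csf1r at 83.2 and 65.9 FPKM and Itgam at 23.4 and 11.0 FPKM. Gm49368 overlaps 68.7% of the Itgam exon length and Hmgxb3 15.1% of that of Csf1r. All 7 osteoclast markers rose, against 22.8% of all tested genes, with a median log2 fold change of 3.35. The changes ran from 0.42 ± 0.04 (Ctsk) to 4.04 ± 0.19 (Dcstamp, at 0.130 FPKM in control samples). Their summed level was 285 to 309 FPKM in control and 503 to 520 FPKM in ZM samples. Most of this sum was Ctsk, the marker that rose least, so the sum understates the change of the other markers. Endothelial markers summed to at most 0.332 FPKM and muscle markers to at most 0.188 FPKM in any library. Chondrocyte markers summed to 2.83 to 3.15 FPKM in control and 5.91 to 6.20 FPKM in ZM samples, with Sox9 the highest. Of 3 platelet markers Pf4, which macrophages also make, fell from 238 to 23.8 FPKM. The platelet markers Itga2b (0.348 and 0.339 FPKM) and Gp1ba (0.220 and 0.335 FPKM) were low in control and ZM samples and were not called. The part of these cells in the changes above was not tested.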

How the data were processed

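mRNA libraries of mouse calvarial osteoblast cultures, 3 control and 3 with ZM, were grouped by sample title. HISAT2 2.2.1, featureCounts 2.0.3, DESeq2 and the build mm10 appear in the submitters' processing notes. The sources used here give neither annotation nor strand setting. Per the file headers the authors deposited read counts, which are whole and not normalized. The FPKM deposited by the authors equal the count over column total and a fixed gene length, which came out whole (within 0.01 bases) for 100% of genes.

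The 17533 genes kept by filterByExpr entered the main test, edgeR 4.0.16 under R 4.3.3 (TMM scaling, robust quasi-likelihood F test, Benjamini-Hochberg adjustment, threshold 0.05). SEs are the absolute log2 fold change over the square root of F. Shares and log2 ratios were taken from deposited FPKM within a library and compared by exact two-sided permutation tests (SciPy 1.17.1). Coordinates and transcripts are from GENCODE M21 (GRCm38). Genes named are the 10; per pathway list up to 2 risen and 2 fallen genes with the largest called change and groups that do not overlap; Ccn2, Smad2, Smad3, Smad4, Smad7, Ltbp1, Ltbp4, Acvr1b, Acvr2a, Acvr2b and Bambi; the highest marker of a list, Itgam, Csf1r and Lyz2; and for the largest rise and fall the 3 nearest genes. Gdf11, Bgn, Dcn, Fstl1, Fstl3, Htra1, Lefty1, Cx3cr1, Sp7, Alpl, Dcstamp, Itga2b and Gp1ba were added after their values were seen. The genes and lists were chosen with earlier results of these data known. Listed genes without a row (Inhbe, Nodal, Cer1, Tdgf1, Emcn and Myod1) were not analysed here, genes under the filter were not tested, and 1 gene that the rule names is not reported here. Alternatives tried: DESeq2 1.42.0, other scalings and filters, a block for the replicate number, each library left out in turn, and limma 3.58.1 on log2(FPKM + 1) or log2(FPKM + 0.1), scales that understate changes of low genes. Within a group, every pair of libraries differed by more than counting noise (chi-square per degree of freedom 5.30 to 8.98).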

Additional observations from a re-analysis of the deposited data

How the results depend on the processing

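Across all alternatives run, the 7 called genes among the 10 kept their direction and their call: the log2 fold change was -1.09 to -1.01 for Inhba, -0.71 to -0.58 for Tgfb1, -0.23 to -0.13 for Tgfb2, 0.64 to 0.74 for Tgfb3, 0.80 to 0.88 for Fst, 0.69 to 0.78 for Tgfbr3 and 0.24 to 0.31 for Tgfbr2. Ltbp2 was the exception among the uncalled genes, being called as higher when scaled by total count (0.12, adjusted p = 0.0063) and by limma on log2(FPKM + 1) (0.11, adjusted p = 0.015) or log2(FPKM + 0.1) (0.12, adjusted p = 0.015). That shift follows from the construction: without TMM the median of all genes moved by 0.06. The deposited FPKM are scaled that way, and limma on them called 2348 genes lower with a pseudocount of 1 and 2345 with 0.1, against 3935 with edgeR; of the called genes 62.8% were higher there and 62.2% with library size alone, against 50.4% with TMM. The shares and ratios kept their direction in all alternatives, with the log2 ratio of Fst to Inhba moving by 1.83 to 1.92. Same-numbered control and ZM libraries did not deviate together (correlations -0.0398, 0.0582 and -0.0146 for numbers 1, 2 and 3). With 3 libraries a group this cannot show if same-numbered libraries shared an origin, which the labels do not state. With a replicate block 7752 genes were called against 7939 without, and the 10 genes had the same 4 rises and 3 falls. Depth was not limiting for the 10 genes, and the number of libraries limits the exact tests to p = 0.1.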
